A study of Homo sapiens with 6 samples.

Results

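The 51 genes described here belong to the interferon response and to antigen presentation on MHC class I, and all of them were read in HepG2, a human hepatocellular carcinoma line. They were chosen by symbol, and each matched 1 of the 60240 Ensembl gene rows of the deposited table. By role, 10 encode interferon receptor chains and transcription factors, 29 are interferon-stimulated genes and 12 belong to class I presentation. Treatment was with the TGF-beta family ligand GDF11, as recombinant protein at 100 ng/ml for 24 h, in 3 cultures, and the 3 control cultures of the same line received none. Total RNA was sequenced as 75-base single reads, with 1 library per culture, and the labels call the cultures biological replicates. The cells are 1 tumour line grown without other cell types, which limits them as a model of liver.

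Interferons act through receptors on the cell surface that switch on JAK kinases, which phosphorylate STAT proteins. Type I interferons bind a receptor made of IFNAR1 and IFNAR2, and interferon gamma binds one made of IFNGR1 and IFNGR2. Signals from the type I receptor assemble a complex of STAT2, IRF9 and a further STAT that binds a DNA element called the ISRE, and interferon gamma signals reach a different element called GAS. The targets include antiviral effectors and the machinery that cuts proteins into peptides, carries the peptides into the endoplasmic reticulum and loads them onto class I molecules. Hepatocytes are known to respond to interferons, and viral hepatitis is treated with them.

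The 14 genes that passed the test fell into distinct roles. Of the receptor chains and factors, IRF9, IFNAR2, IFNGR1 and STAT2 rose with GDF11. Among the interferon targets, IFI27, SAMD9, OAS1, XAF1 and OAS2 rose, while ISG20, USP18 and IFIT3 fell. In class I presentation, PSMB9 and TAP1 fell, whereas the measured class I chain genes HLA-B, HLA-C, HLA-E and HLA-F and their partner B2M were not called. Values are variance-stabilised log2 units made by the authors, with 5.52 standing for no reads, and a gene is said to be called, or to have risen or fallen, where limma's Benjamini-Hochberg adjusted p over 18723 tested genes was under 0.05. By that rule 9 of the 47 tested genes of the set rose, beside 11.7% of all tested genes, and 5 fell, beside 10.8% (22.4% in either direction). The share that fell is near that background. Fewer cells of a kind and less RNA per cell cannot be told apart in such bulk samples.

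The DNA upstream of these genes' RefSeq starts is shown for some stretches that hold element letters. Whether these letters have a part in which genes moved was not tested. RefSeq start windows on GRCh38.p14 were held for 39 of the 51 genes, and only the 250 bases before each start were searched, on both strands. The ISRE core, searched as a pair of GAAA runs with any 2 bases between them, was found in 23 of the 39 genes (59.0%) and in 3.71% of the 27305 genes with a window. It was found for 18 of 23 interferon targets, 5 of 10 presentation genes and 0 of 6 factor and receptor genes. By response, 2 of 7 genes that rose, 3 of 4 that fell and 16 of 25 that were not called held it. The letters TTCNNNGAA, for GAS, were found in 11 of the 39 genes (28.2%) and in 8.09% of all. These letters were held by 3 of 7 genes that rose, 1 of 4 that fell and 7 of 25 that were not called. One form of the NF-kappaB site, the second run of capitals in the TAP1 stretch below, was found for TAP1, B2M and IFNGR2 (7.69%), and in 0.216% of all genes. TGANTCA, the AP-1 element, was found for ISG20, MX1 and SAMD9L (7.69%) and in 8.06% of all genes. Matches can overlap one another, and a match is a run of letters, not a bound site.

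Stretches picked because they hold such letters follow, from genes that rose, fell and were not called. They run 5′ to 3′ on the strand of the gene, with ISRE, GAS and NF-kappaB letters in capitals. STAT2, IFNGR1 and XAF1, which rose, and PSMB9, which fell, held none of the elements in the bases searched. SAMD9 (chr7:93118076-93118135, minus strand), IFI27 (chr14:94110608-94110667, plus strand), OAS1 (chr12:112906774-112906833, plus strand) and IRF9 (chr14:24161182-24161241, plus strand) rose:
SAMD9: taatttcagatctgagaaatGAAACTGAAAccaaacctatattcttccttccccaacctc
IFI27: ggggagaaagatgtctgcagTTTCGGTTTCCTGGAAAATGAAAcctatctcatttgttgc
OAS1: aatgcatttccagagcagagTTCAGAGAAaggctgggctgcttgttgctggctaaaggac
IRF9: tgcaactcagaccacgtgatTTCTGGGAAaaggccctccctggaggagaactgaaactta
In IFI27 a GAS match overlaps an ISRE match on each side. IFIT3 (chr10:89327821-89327900, plus strand), ISG20 (chr15:88638927-88638986, plus strand) and TAP1 (chr6:32853759-32853858, minus strand) fell:
IFIT3: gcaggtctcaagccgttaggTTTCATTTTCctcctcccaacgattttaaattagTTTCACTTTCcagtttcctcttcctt
ISG20: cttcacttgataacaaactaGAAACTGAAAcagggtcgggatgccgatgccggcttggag
TAP1: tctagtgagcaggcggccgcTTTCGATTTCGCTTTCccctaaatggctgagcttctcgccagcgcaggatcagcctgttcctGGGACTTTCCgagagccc
ISG15 (chr1:1013364-1013423, plus strand), BST2 (chr19:17405721-17405780, minus strand) and B2M (chr15:44711353-44711412, plus strand) were not called:
ISG15: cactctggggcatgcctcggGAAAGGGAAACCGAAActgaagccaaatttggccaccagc
BST2: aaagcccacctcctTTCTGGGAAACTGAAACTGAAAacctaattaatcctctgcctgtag
B2M: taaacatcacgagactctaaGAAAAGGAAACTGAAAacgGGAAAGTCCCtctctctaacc
The TAP1 and B2M stretches both hold a pair of overlapping ISRE matches followed by the NF-kappaB letters, which in B2M read on the opposite strand. TAP1 was called lower and B2M was not.

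Control replicate 3, though untreated, lay between the other controls and the GDF11 libraries for many of these genes. A scale was set with 0 at the mean of control replicates 1 and 2 and 1 at the GDF11 mean. Genes were taken where these 2 means differ by at least 0.5, so control replicate 3 had no part in the choice. The median position of control replicate 3 was 0.44 over 5 factor and receptor genes, 0.45 over 12 targets and 0.65 over 5 presentation genes. The same median over all tested genes is not given here, so these medians have no background beside them. RNA integrity numbers were 9.6, 9.5 and 9.4 in the GDF11 libraries and 9.8, 9.9 and 9.6 in the controls, so they move with treatment. Whether RNA integrity has a part in the differences was not tested beyond the covariate values given with them. The libraries are worth an estimated 47900000 to 53400000 reads each. That is more than a run of the MiSeq named in the labels' protocol is known to give, so this depth and the back-transformed read levels rest on the inversion of the authors' scale alone. Over 9 hepatocyte markers, all above the lowest value, summed normalised reads were 1240000 to 1370000 in GDF11 libraries and 1520000 to 2020000 in controls. Of 10 leukocyte markers 8 were above the lowest value in some library, and 6 had a mean at least 0.5 above it. PTPRC and CD3E, also of this list, had no reads in any library. That list summed to 32700 to 34400 normalised reads with GDF11 and to 69200 to 80600 in controls, with LYZ alone at 29200 to 31100 with GDF11 and 64700 to 76800 in controls. All 5 endothelial markers were above the lowest value in some library, at a sum of 181 to 221 with GDF11 and 87.9 to 193 in controls, and so were all 7 fibroblast markers, at 1940 to 2570 with GDF11 and 763 to 1500 in controls. In the fibroblast list PDGFRB alone held 1910 to 2550 of these reads with GDF11 and 751 to 1470 in controls. The cultures were of the HepG2 line without other cell types, and the source of these marker reads was not tested.

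None of the 10 interferon genes looked up passed the filter on low values: 8 were listed at the lowest value in all 6 libraries, and IFNL1 and IFNL3 stood at 5.74 in control replicate 1 and at the lowest value elsewhere. The receptor chain genes of interferon lambda, IFNLR1 (0.17 ± 0.149, difference ± SE) and IL10RB (0.30 ± 0.162), were not called by limma, with adjusted p of 0.440 and 0.213. Neither passed an unadjusted p of 0.05.

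Among the 10 receptor chain and factor genes, 4 rose and 0 fell, beside 11.7% and 10.8% of all tested genes. A further 5 were not called and 1 was not tested. None was lower by limma at an unadjusted p under 0.05, a level at which 18.5% of all tested genes were higher and 18.7% lower. The median difference over the 10 genes was 0.41, beside 0.0056 over all tested genes. IFNAR2, a chain of the type I receptor, stood at 10.86, 10.87 and 10.93 in the GDF11 libraries. Control replicates 1, 2 and 3 had 9.99, 9.66 and 10.25. Every GDF11 library lay above every control, and the back-transformed read level was 1.94 times that of the controls (log2 difference 0.92 ± 0.174, adjusted p = 0.00633). Its partner IFNAR1 had 11.57, 11.38 and 11.77 with GDF11 and 10.99, 10.56 and 11.31 in controls, with no overlap, but missed the threshold (0.63 ± 0.209, adjusted p = 0.0620). IFNGR1, which binds interferon gamma, had 12.75, 12.78 and 12.81 with GDF11 and 12.06, 11.78 and 12.30 in controls. The GDF11 values again lay above all controls (0.74 ± 0.166, adjusted p = 0.0138). Its partner IFNGR2 had 11.68, 11.73 and 11.61 with GDF11 and 11.62, 11.87 and 11.85 in controls, so the groups overlapped (-0.10 ± 0.142, adjusted p = 0.632). IFNAR2, IFNAR1 and IFNGR2 lie in this order on chromosome 21, with 58730 and 43017 bases between neighbouring genes in RefSeq.

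IRF9, the DNA-binding part of the ISRE complex, had the largest difference among the factors. It stood at 9.71, 9.64 and 9.31 in the GDF11 libraries and at 8.34, 8.12 and 8.54 in controls. The groups were separate, and the GDF11 read level was 2.78 times the control (1.22 ± 0.177, adjusted p = 0.00163). IRF9 (ENSG00000213928.9) lies on chromosome 14 at 24161265 to 24166565 of GRCh38. STAT2, its partner in the complex, had 11.31, 11.51 and 11.32 with GDF11 and 10.38, 10.66 and 10.95 in controls, 1.66 times the control in reads (0.71 ± 0.176, adjusted p = 0.0198). IRF1, an activator of interferon gamma targets, had 9.96, 9.84 and 9.76 with GDF11 and 9.86, 10.17 and 9.79 in controls, with overlapping groups (-0.09 ± 0.159, adjusted p = 0.724). IRF3, which is activated by nucleic acid sensors, had 11.58, 11.77 and 11.48 with GDF11 and 11.98, 12.09 and 11.20 in controls (-0.15 ± 0.237, adjusted p = 0.684). Its control values bracketed all GDF11 values. IRF2, an antagonist of IRF1, was not called either (0.04 ± 0.190). IRF7, the amplifier of type I interferon production, was not tested: it stood at 5.81, 5.83 and 5.52 with GDF11 and at the lowest value in all controls.

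The call of STAT2 ended on leaving out any 1 library but control replicate 3: control replicate 1 (0.57) or 2 (0.71), or GDF11 replicate 1 (0.75), 2 (0.65) or 3 (0.75). That of IFNGR1 ended without GDF11 replicate 1 (0.75), 2 (0.74) or 3 (0.72). In each of these fits 2 genes of this class rose, beside 1397, 1517 and 1462 in turn of all 18723 tested genes. Without control replicate 3, where 19.5% of all tested genes rose and 21.3% fell (40.8% together), 5 genes of the class rose, IFNAR1 among them (0.80, adjusted p = 0.00625), and IRF3 fell (-0.43, adjusted p = 0.0282). Once the RNA integrity number entered as a covariate, a fit in which 6.14% of all genes rose and 3.85% fell (9.99% together), only IRF9 of this class kept its call (1.13, adjusted p = 0.0341), while IFNAR2 stood at 0.54 (adjusted p = 0.130), IFNGR1 at 0.40 (adjusted p = 0.217) and STAT2 at 0.48 (adjusted p = 0.262).

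**Figure D1:**
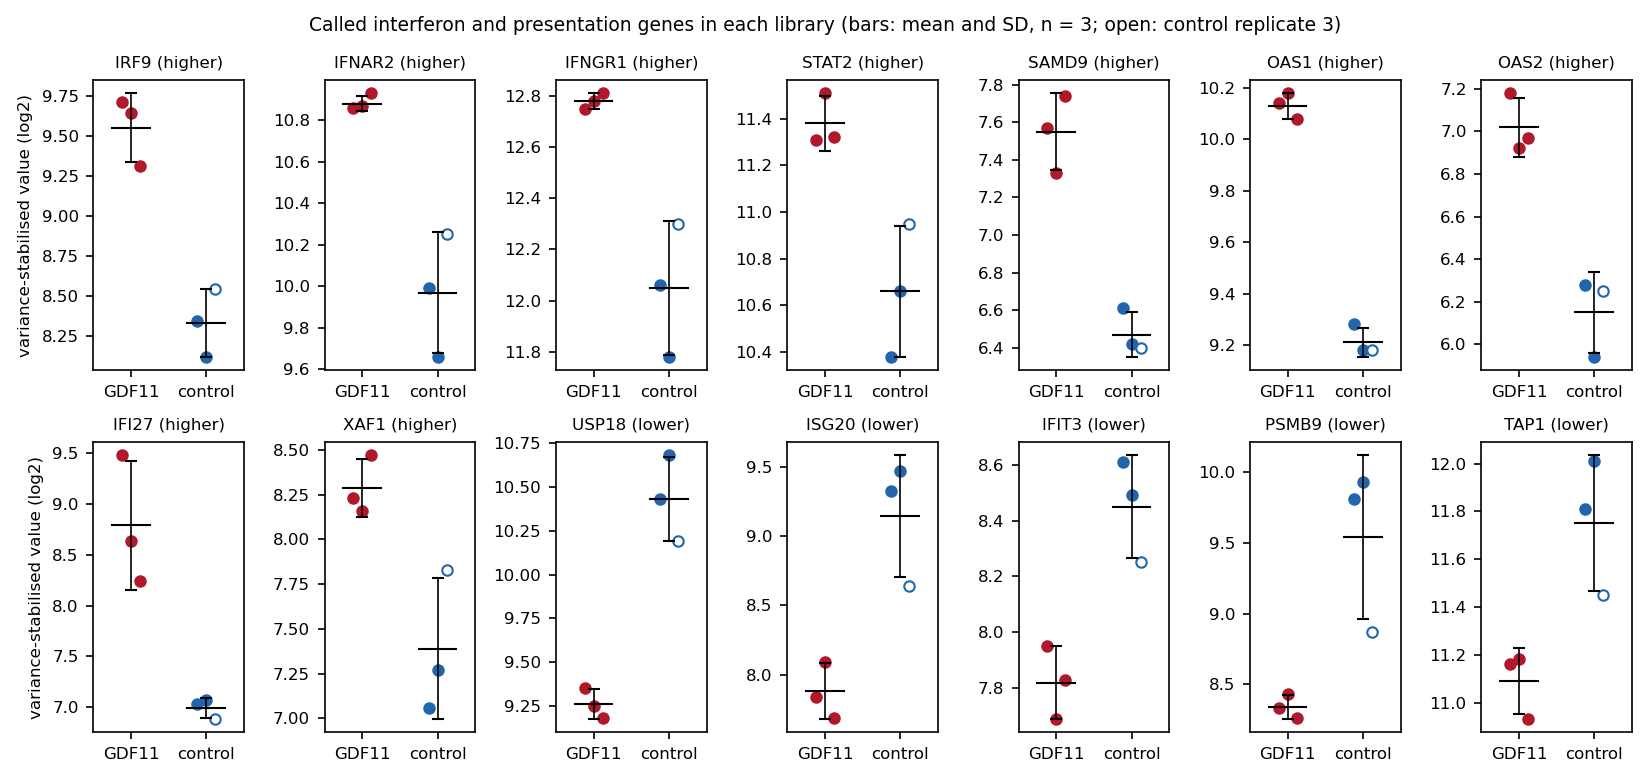
Variance-stabilised log2 value (y axis, its own range in each panel) of the 14 called genes in each library, GDF11 on the left and control on the right; lines and bars give the mean and SD of 3 libraries and the open circle is control replicate 3. In every panel the GDF11 and control values do not overlap, and control replicate 3 is the control nearest to the GDF11 libraries in IRF9, IFNAR2, IFNGR1, STAT2, XAF1, USP18, ISG20, IFIT3, PSMB9 and TAP1.

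The 29 interferon targets moved in both directions: 5 rose and 3 fell, beside 11.7% and 10.8% of all tested genes. A further 18 were not called and 3 were not tested. The median difference over the 29 targets was 0.01. The groups did not overlap for 5 genes that were higher and 5 that were lower, where 20.9% of all tested genes were separate and higher and 19.6% separate and lower. IFI27, an interferon alpha-inducible gene of the mitochondrial membrane protein family, had the largest difference of all 51 genes. It stood at 9.48, 8.64 and 8.24 with GDF11 and at 7.03, 7.07 and 6.88 in controls. Its GDF11 values spread over more than 1 log2 unit, yet the lowest of them was above every control, and the read level was 7.42 times the control (1.80 ± 0.277, adjusted p = 0.00223).

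The oligoadenylate synthetase genes, whose enzymes make the activator of the antiviral nuclease RNase L, did not move together. OAS1 had 10.14, 10.18 and 10.08 with GDF11 and 9.28, 9.18 and 9.18 in controls, 2.04 times the control in reads. Control replicate 3 stood with the other controls, and the groups were far apart relative to their spread (0.92 ± 0.135, adjusted p = 0.00179). OAS2 had 7.18, 6.92 and 6.97 with GDF11 and 6.28, 5.94 and 6.25 in controls (0.87 ± 0.131, adjusted p = 0.00200). OAS3, which lies between OAS1 and OAS2 on chromosome 12 with 5254 and 5267 bases to its neighbours, had 10.80, 10.68 and 10.73 with GDF11 and 10.95, 11.29 and 11.06 in controls. All its GDF11 values were below its controls, but it missed the threshold (-0.36 ± 0.148, adjusted p = 0.110). The related OASL, at 6.64, 6.52 and 6.29 with GDF11 and 6.15, 6.71 and 6.25 in controls, had overlapping groups.

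SAMD9, a restriction factor of poxviruses, had 7.57, 7.33 and 7.74 with GDF11 and 6.61, 6.42 and 6.40 in controls. That is 5.13 times the control in reads, with separate groups (1.07 ± 0.140, adjusted p = 0.000915). Its neighbour SAMD9L was not tested, at 5.73, 5.52 and 5.86 with GDF11 and the lowest value in all controls. XAF1, a pro-apoptotic interferon target, had 8.23, 8.16 and 8.47 with GDF11 and 7.06, 7.27 and 7.83 in controls (0.90 ± 0.206, adjusted p = 0.0147). The highest XAF1 control was replicate 3.

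USP18, which removes ISG15 from proteins and restrains signalling from IFNAR2, fell. It had 9.35, 9.25 and 9.18 with GDF11 and 10.43, 10.68 and 10.19 in controls. The groups were separate, and GDF11 libraries held 0.403 times the control reads (-1.17 ± 0.165, adjusted p = 0.00138). USP18 (ENSG00000184979.10) lies on chromosome 22 at 18150170 to 18177397 of GRCh38, and reads cannot be assigned with certainty between it and its near-identical relative USP41. ISG20, an antiviral exonuclease, had 7.84, 8.09 and 7.69 with GDF11 and 9.32, 9.47 and 8.64 in controls, 0.311 times the control in reads (-1.27 ± 0.229, adjusted p = 0.00503). Its lowest control was replicate 3, still above all GDF11 values. IFIT3, a partner of the RNA-binding protein IFIT1, had 7.95, 7.69 and 7.83 with GDF11 and 8.61, 8.49 and 8.25 in controls (-0.63 ± 0.154, adjusted p = 0.0197). The other genes of the chromosome 10 cluster were not called: IFIT1 stood at 7.26, 7.24 and 7.24 with GDF11 and 7.68, 7.84 and 7.27 in controls (-0.35 ± 0.163, adjusted p = 0.156), IFIT2 at -0.12 and IFIT5 at 0.16 in difference.

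Several widely used interferon markers gave no call. ISG15, a ubiquitin-like modifier, had 9.89, 10.16 and 9.73 with GDF11 and 10.74, 10.88 and 9.77 in controls (-0.53 ± 0.281, adjusted p = 0.200). Control replicate 3 alone put the groups in overlap, at 1.18 on the scale given above. MX1, a dynamin-like antiviral GTPase, had 8.21, 8.18 and 7.85 with GDF11 and 7.72, 8.11 and 8.67 in controls (-0.08 ± 0.238, adjusted p = 0.832), and its control range enclosed the GDF11 values. BST2, or tetherin, which holds budding viruses at the surface, had 12.43, 12.50 and 12.36 with GDF11 and 12.55, 12.60 and 12.29 in controls (-0.05 ± 0.148, adjusted p = 0.840). IFITM3, which blocks virus entry at endosomes, had 12.84, 12.94 and 12.63 with GDF11 and 13.26, 13.27 and 12.37 in controls (-0.16 ± 0.248, adjusted p = 0.664). Reads can be divided among IFITM1, IFITM2 and IFITM3, whose sequences are alike, and neither IFITM1 (0.25 ± 0.234) nor IFITM2 (0.30 ± 0.208) was called. MX2, IFI6, PARP9, DTX3L, IFI35, IFIH1 and PARP14 were not called, with differences of -0.62 (IFI35) to 0.72 (PARP14). PARP9 and DTX3L overlap by 447 bases in RefSeq on opposite strands, and no source used here states whether the authors' counting used strand. IFI44 and IFI44L were not tested. IFI44 stood between 5.52 and 5.75 with GDF11 and between 5.52 and 5.71 in controls, and IFI44L between 5.52 and 6.46 with GDF11 and between 5.67 and 5.96 in controls.

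The calls of IFI27, SAMD9, OAS1, OAS2, ISG20 and USP18 held without any 1 library. That of XAF1 ended without control replicate 1 (0.74), control replicate 2 (0.84) or GDF11 replicate 3 (0.81), and that of IFIT3 without control replicate 1 (-0.55), control replicate 2 (-0.61), GDF11 replicate 2 (-0.56) or GDF11 replicate 3 (-0.63). Without control replicate 3, 7 targets rose and 7 fell, beside 19.5% and 21.3% of all tested genes. PARP14 (0.95) and DTX3L (0.49) joined those that rose, and IFI35 (-0.88), ISG15 (-0.88), IFIT1 (-0.51) and IFITM3 (-0.46) those that fell. With the RNA integrity covariate 5 targets rose and 1 fell, beside 6.14% and 3.85% of all tested genes. IFI27 (2.42), SAMD9 (1.05), OAS1 (0.95) and USP18 (-0.82) kept their calls, and IFITM1 (0.91) and IFITM2 (0.86) gained one. OAS2 (0.79, adjusted p = 0.0555), ISG20 (-0.67, adjusted p = 0.150), XAF1 (0.41, adjusted p = 0.376) and IFIT3 (-0.41, adjusted p = 0.298) lost theirs.

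**Figure D2:**
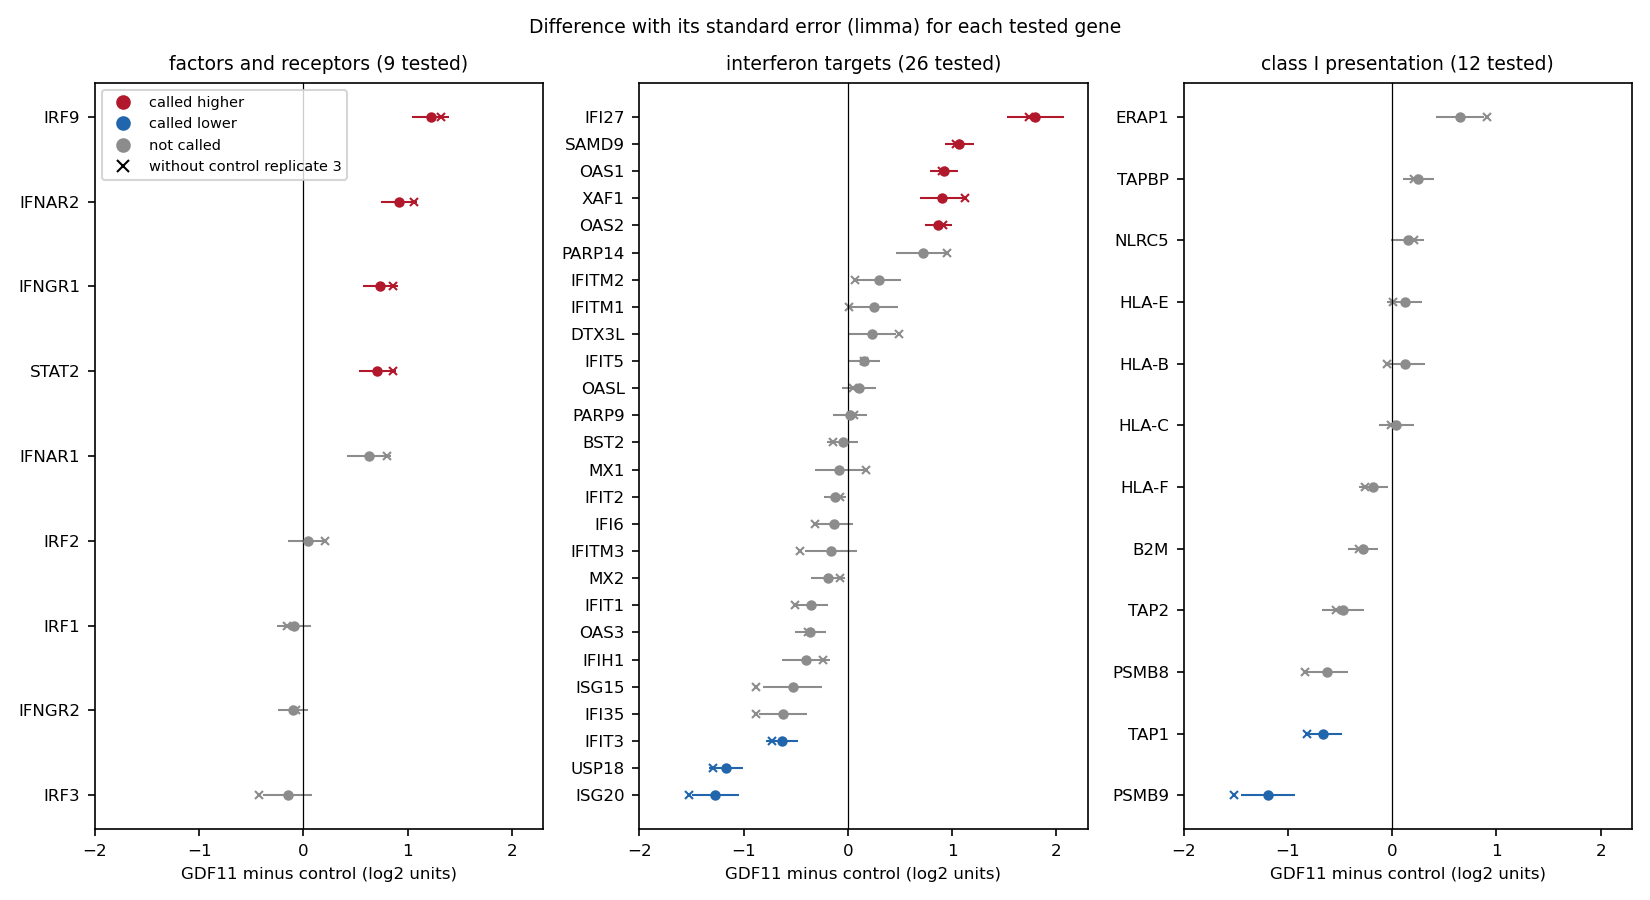
Difference between GDF11 and control means in log2 units (x axis, bars are limma standard errors, n = 3 each) for the 47 tested genes, by class; crosses give the difference without control replicate 3. IFI27 has the largest difference (1.80), and the class I presentation panel runs from -1.19 for PSMB9 to 0.65 for ERAP1.

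In class I presentation PSMB9 and TAP1, which cut and carry peptides, fell with GDF11, and the class I chain genes gave no call. Of the 12 genes, 0 rose and 2 fell by limma, beside 11.7% and 10.8% of all tested genes, and 10 were not called. At an unadjusted p under 0.05 the counts were 1 higher and 4 lower, beside 18.5% and 18.7% of all tested genes. Their median difference was -0.07, and 5 of the 12 had separate groups, beside 40.5% of all tested genes. PSMB9, an immunoproteasome subunit that takes the place of the standard subunit PSMB6, had 8.33, 8.43 and 8.26 with GDF11 and 9.81, 9.93 and 8.87 in controls. Control replicate 3 was about a log2 unit under the other controls and still above all GDF11 values, and the GDF11 read level was 0.348 times the control (-1.19 ± 0.262, adjusted p = 0.0125). PSMB8, the immunoproteasome counterpart of PSMB5, had 11.20, 11.23 and 11.02 with GDF11 and 11.89, 12.09 and 11.35 in controls. Its groups were separate, but it missed the threshold (-0.63 ± 0.202, adjusted p = 0.0543).

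TAP1 and TAP2 form the transporter that carries peptides into the endoplasmic reticulum. TAP1 had 11.16, 11.18 and 10.93 with GDF11 and 11.81, 12.01 and 11.45 in controls, 0.616 times the control in reads (-0.66 ± 0.178, adjusted p = 0.0290). TAP2 had 10.57, 10.03 and 10.02 with GDF11 and 10.54, 10.95 and 10.55 in controls, and GDF11 replicate 1 lay among the controls (-0.47 ± 0.201, adjusted p = 0.122). TAP2, PSMB8, TAP1 and PSMB9 are neighbours on chromosome 6, with 1977, 529 and 487 bases between them in RefSeq, and the upstream stretch printed for TAP1 lies in the gap between TAP1 and PSMB9. TAP1 (ENSG00000168394.11) is at 32845209 to 32853704 and PSMB9 (ENSG00000240065.8) at 32854192 to 32859851 of GRCh38. All 4 had negative differences. The GENCODE locus of PSMB9 spans TAP1, so reads from the shared stretch are uncertain in origin.

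HLA-B, a class I heavy chain, had 13.04, 12.86 and 12.71 with GDF11 and 12.78, 13.05 and 12.42 in controls (0.12 ± 0.192, adjusted p = 0.688). HLA-C, another classical heavy chain, had 13.83, 13.70 and 13.58 with GDF11 and 13.50, 13.92 and 13.56 in controls (0.04 ± 0.169, adjusted p = 0.883). HLA-E, a non-classical chain read by natural killer cells, had 13.01, 12.99 and 12.81 with GDF11 and 12.78, 13.08 and 12.58 in controls (0.12 ± 0.170, adjusted p = 0.636). The groups overlapped in all 3 genes, and reads can be divided among these similar chains. B2M, the light chain of every class I molecule, had 13.35, 13.46 and 13.40 with GDF11 and 13.66, 13.78 and 13.62 in controls. Its groups were separate by a small step, without a call (-0.28 ± 0.141, adjusted p = 0.180). HLA-F, a further non-classical chain, stood at 7.50 to 7.56 with GDF11 and 7.54 to 7.89 in controls.

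ERAP1, the peptidase that trims peptides in the endoplasmic reticulum, had a difference of the opposite sign without a call, at 11.35, 11.01 and 11.37 with GDF11 and 10.31, 10.36 and 11.11 in controls (0.65 ± 0.231, adjusted p = 0.0737). Control replicate 3 lay above GDF11 replicate 2, and the other controls lay below all GDF11 libraries. TAPBP, or tapasin, which holds class I molecules at the transporter, had 12.83, 12.74 and 12.69 with GDF11 and 12.41, 12.67 and 12.42 in controls, separate but not called (0.25 ± 0.146, adjusted p = 0.240). NLRC5, the transactivator of class I genes, had 8.93, 9.32 and 9.13 with GDF11 and 8.90, 8.93 and 9.11 in controls (0.15 ± 0.158, adjusted p = 0.530).

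The fall of PSMB9 and TAP1 depended on single libraries and on the RNA integrity covariate. The call of PSMB9 ended without control replicate 1 (-1.05, adjusted p = 0.0598), and that of TAP1 without control replicate 1 (-0.63), control replicate 2 (-0.54), GDF11 replicate 1 (-0.70), GDF11 replicate 2 (-0.71) or GDF11 replicate 3 (-0.58). The number of presentation genes that fell was therefore 0 without control replicate 1 and 1 without control replicate 2 or any 1 GDF11 library. Of all 18723 tested genes, 1094 fell without control replicate 1, 1189 without control replicate 2 and 955 to 1144 without 1 GDF11 library. Without control replicate 3, 3 fell, beside 21.3% of all tested genes, with PSMB9 at -1.52 (adjusted p = 0.000109), PSMB8 at -0.84 and TAP1 at -0.82. ERAP1 rose in that fit (0.91, adjusted p = 0.00164). With the RNA integrity covariate 0 fell, PSMB9 standing at -0.48 (adjusted p = 0.351) and TAP1 at -0.22 (adjusted p = 0.497), and HLA-B was called higher (0.64, adjusted p = 0.0416). At an unadjusted p under 0.05 limma's covariate fit gave 3 higher and 0 lower presentation genes, 2 and 0 of the factors and receptors and 6 and 3 of the targets, beside 2371 genes higher (12.7%) and 2067 lower of all 18723 tested.

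**Figure D3:**
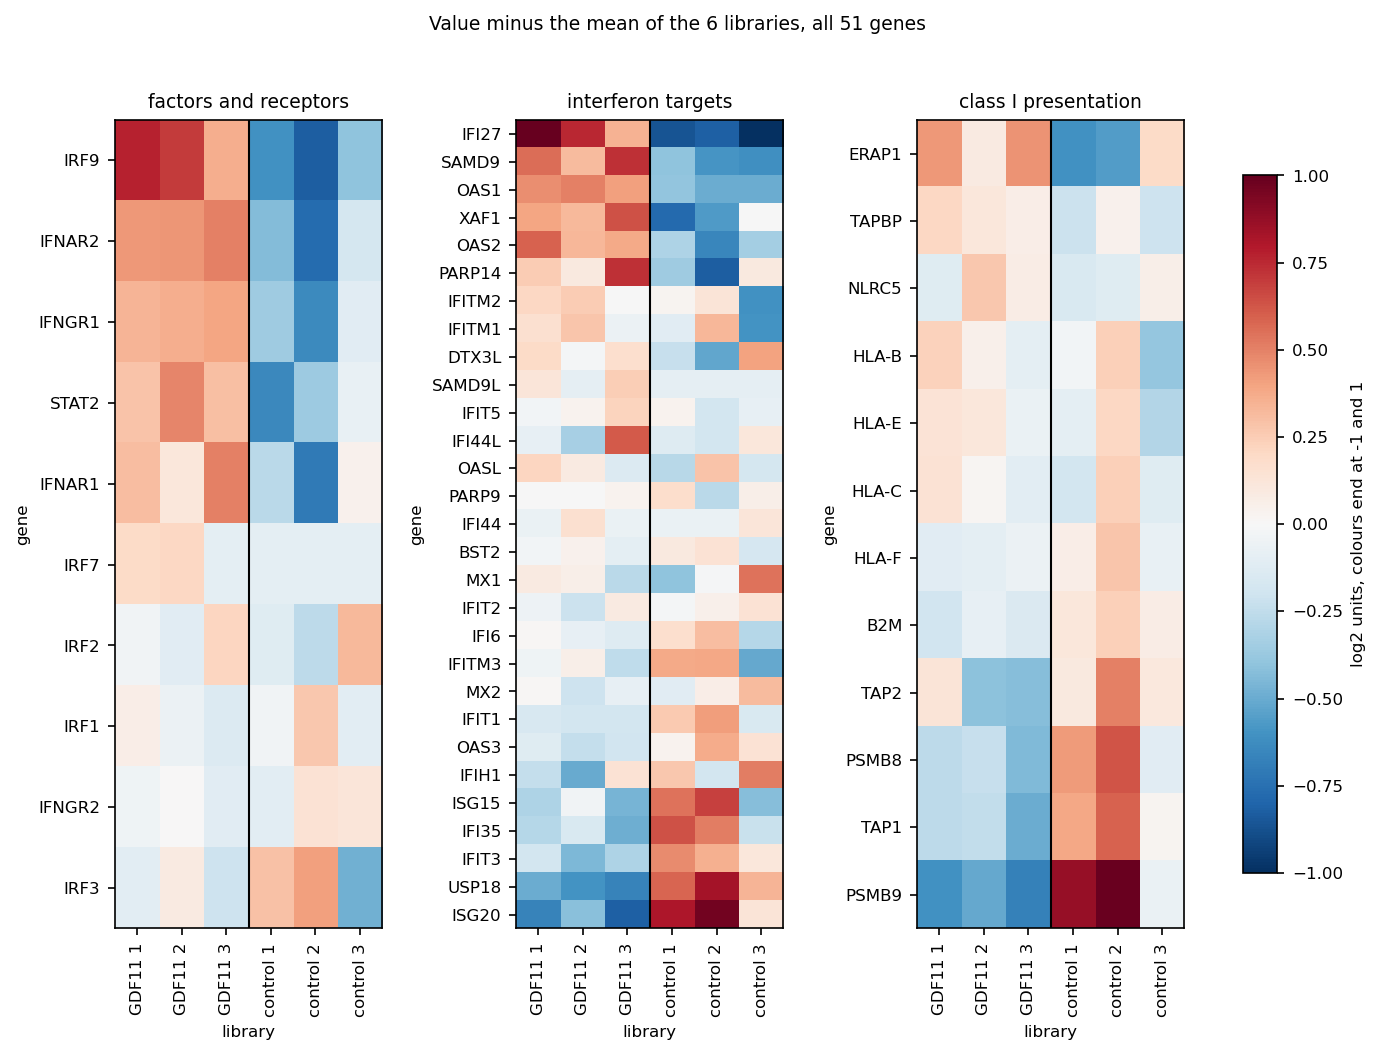
Value of each of the 51 genes (rows) in each library (columns, GDF11 left of the line and control right) minus that gene's mean over the 6 libraries, in log2 units; colours end at -1 and 1. IRF9, IFNAR2, IFNGR1 and STAT2 are above their mean in all GDF11 libraries, PSMB9 and USP18 below it, and control replicate 3 is paler than the other controls in PSMB9, TAP1, PSMB8, ISG20 and IFNAR2.

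The proteasome genes outside the set place PSMB8 and PSMB9 among their relatives. Limma called 0 higher and 1 lower of 7 genes for standard catalytic subunits, the further immunoproteasome subunit and the activators. The shares of all tested genes were 11.7% and 10.8%, and 6 of the 7 were not called. At an unadjusted p under 0.05, 0 were higher and 3 lower, beside 18.5% and 18.7% of all tested genes. PSMB10, the immunoproteasome counterpart of PSMB7, had 10.12, 10.02 and 9.81 with GDF11 and 11.16, 11.09 and 10.42 in controls (-0.91 ± 0.214, adjusted p = 0.0165). Its groups were separate, and its call ended without control replicate 1 (-0.78), control replicate 2 (-0.81) or GDF11 replicate 3 (-0.82). The RNA integrity covariate ended it too (-0.33, adjusted p = 0.389). Without control replicate 3 all 7 genes fell, in a fit where 21.3% of all tested genes fell. The standard subunits PSMB5 (-0.78), PSMB6 (-0.53) and PSMB7 (-0.53), named after their values were seen, were included. Control replicate 3 stood at 0.82, 1.36 and 1.13 for these standard subunits on the scale given above, and at 0.65 for PSMB9 and 0.76 for PSMB8. The lower level without that control was thus not confined to the immunoproteasome subunits.

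Genes around the rest of class I presentation gave few calls. Of 12 genes for peptide loading and class I assembly, 0 rose and 0 fell by limma, beside 11.7% and 10.8% of all tested genes. None of the 12 passed an unadjusted p of 0.05, where 18.5% of all tested genes were higher and 18.7% lower. Without control replicate 3, 2 of them rose and 1 fell, beside 19.5% and 21.3% of all tested genes. Of 8 genes for factors that transcribe MHC genes, 0 rose and 0 fell, none at an unadjusted p under 0.05, and without control replicate 3 there was 1 in each direction. Of 9 MHC class II genes only CD74 and HLA-DMA passed the filter on low values, and limma called 0 of them, none at an unadjusted p under 0.05, while both fell without control replicate 3.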

How the data were processed

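The authors deposited 1 table of log2 values, named as variance-stabilised, for 60240 Ensembl genes in 6 libraries. Per the submitters' processing notes the authors used Trimmomatic, Salmon 1.2.1, DESeq2 and GRCh38, while the labels' protocols name STAR 2.6 and hg19, and no source used here says which made the values. The test was limma 3.58.1 under R 4.3.3 (mean trend, two-sided, no covariate) over the 18723 genes with a mean at least 0.5 above the lowest value, with Benjamini-Hochberg adjustment at 0.05. Read levels and depth come from inverting the variance-stabilising curve, which is fixed by the lowest value. Of low values, up to 20 reads, 71.2% to 74.4% fell on whole reads within 0.01, so no count test was run. The fit was tested on simulated data.

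Symbols were had for 96.9% of the IDs; positions and upstream sequences are RefSeq's, on GRCh38.p14, looked up by symbol. The set, the lists and the tests were chosen with earlier results of these data known. Named genes are the 8 of each class with the lowest p, 17 fixed genes, and up to 3 called genes of each further list; others named are given as values only. Alternatives covered filters, normalization, the variance model, library weights, a replicate block, RNA integrity as covariate, scales, thresholds and each library left out in turn. Removal of a trend on transcript GC content and length was added after seeing the data. No sequence was held for 12 genes (IRF2, IRF3, IRF7, IFNAR2, OAS2, OASL, MX2, IFIT2, IFITM2, USP18, HLA-E and NLRC5).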

Additional observations from a re-analysis of the deposited data

How the results depend on the processing

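The direction and side of the threshold of the 33 named genes were unchanged in 323 of the comparisons with alternatives that keep all libraries; 18 gained a call, 9 lost one, all 9 with the RNA integrity covariate, and 11 changed sign. With GC and length removal and without control replicate 3, 22 were unchanged, 9 gained a call and 2 changed sign. Genes called higher and lower numbered 2185 and 2017 in all, against 4473 and 4554 with library weights, 1149 and 721 with the RNA integrity covariate, 3306 lower with the replicate block, and 3685 and 4450 with the trend on GC and length removed and without control replicate 3. Leaving out 1 library gave 1397 to 3647 higher and 955 to 3993 lower. Of the factors and receptors, 4 rose; 1 did with the RNA integrity covariate and 2 at an adjusted p under 0.01, and leaving out 1 library gave 2 to 5 higher and 0 to 1 lower. Targets that rose numbered 3 with the stricter filter, which removes low genes, and 4 to 7 on leaving out 1 library. Targets that fell numbered 7 with library weights, 1 with the RNA integrity covariate, 6 with the replicate block, 6 after GC and length removal, 8 after that removal without control replicate 3, and 2 to 7 on leaving out 1 library. Presentation genes that rose numbered 1 with quantile normalization, the RNA integrity covariate, the replicate block or GC and length removal, 2 with library weights or that removal without control replicate 3, and 0 to 1 on leaving out 1 library. Those that fell numbered 4 with library weights, 0 with the covariate, 4 and 5 after the 2 removals, 0 at an adjusted p under 0.01, and 0 to 3 on leaving out 1 library. The factor median was 0.70 on log2 reads plus 1 and the target median was -0.04 after GC and length removal; on leaving out 1 library the medians were 0.31 to 0.51, -0.04 to 0.05 and -0.15 to 0.02 in factors, targets and presentation. For changes with no cause named the cause was not tested.

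Sign changes, none of them called, were as follows. With the RNA integrity covariate IRF3 stood at 0.48, IRF1 at 0.21, ISG15 at 0.25, IFIT1 at 0.022, IFITM3 at 0.52, BST2 at 0.17 and NLRC5 at -0.054. With library weights IFNGR2 stood at 0.0056 and MX1 at 0.30, and with quantile normalization BST2 at 0.085. After GC and length removal BST2 stood at 0.040, and without control replicate 3 as well at 0.033, with MX1 at 0.011. On leaving out 1 library the ranges were -0.43 to 0.02 for IRF3, -0.16 to 0.03 for IRF1, -0.31 to 0.17 for MX1, -0.14 to 0.0093 for BST2, -0.046 to 0.27 for HLA-B and -0.038 to 0.17 for HLA-C.

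Over the 1000 most variable genes, deviations from the group means correlated at -0.11, 0.21 and 0.32 for replicate numbers 1, 2 and 3. Between libraries of unlike number they correlated at -0.38 to 0.25. These correlations do not settle whether the replicate numbers pair the libraries. The replicate block changed 4 of the 33 named genes, adding calls of IFNAR1 (adjusted p = 0.00736), PSMB8 (0.00981), ERAP1 (0.0141) and ISG15 (0.0399). No symbol had more than 1 table row, so summing rows of 1 symbol gave no value. Changes are compressed at low values: at 8 the scale keeps 0.696 of a log2 change of reads, at 12 it keeps 0.978.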

Other observations

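Genes that carry or restrain interferon and cytokine signals changed in both directions. Of 18 JAK, STAT and negative regulator genes, 3 rose and 2 fell, beside 11.7% and 10.8% of all tested genes, and 13 were not called. SOCS2, an inhibitor of cytokine receptors, had 8.09, 8.14 and 8.03 with GDF11 and 6.29, 6.10 and 6.53 in controls, with separate groups (1.78 ± 0.140, limma adjusted p = 6.22e-05). SOCS3, a related inhibitor, had 7.90, 7.92 and 7.74 with GDF11 and 6.82, 7.12 and 7.08 in controls (0.85 ± 0.138, limma adjusted p = 0.00285). STAT5A, a transcription factor of growth hormone signalling, had 7.78, 7.85 and 7.43 with GDF11 and 9.45, 9.34 and 8.76 in controls, 0.249 times the control in reads (-1.50 ± 0.213, limma adjusted p = 0.00145). These 3 calls held without any 1 library and with the RNA integrity covariate. The other calls, named after their values were seen, were JAK1, a kinase of both interferon receptors, which rose (1.02 ± 0.191), and SOCS1, an inhibitor of JAK kinases, which fell (-0.71 ± 0.164). With the RNA integrity covariate JAK1 stood at 0.57 (adjusted p = 0.118) and SOCS1 at -0.47 (adjusted p = 0.242), neither called, and the call of SOCS1 also ended without GDF11 replicate 1 or 3 (-0.67 each). Without control replicate 3, 8 of the 18 rose and 3 fell, beside 19.5% and 21.3% of all tested genes.

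Of 15 nucleic acid sensing genes 12 were tested, and 1 rose and 0 fell by limma, beside 11.7% and 10.8% of all tested genes. At an unadjusted p under 0.05, 3 were higher and 1 lower, beside 18.5% and 18.7% of all tested genes. RIGI, a sensor of viral RNA, had 9.73, 9.73 and 9.88 with GDF11 and 9.03, 8.67 and 8.97 in controls (0.89 ± 0.155, limma adjusted p = 0.00413), and stood at 0.68 with the RNA integrity covariate (adjusted p = 0.0777). Among 33 further interferon targets 29 were tested, with 5 higher and 4 lower, beside 11.7% and 10.8% of all tested genes. SP100, a nuclear body protein, rose by 1.09 ± 0.156 and EPSTI1 by 1.02 ± 0.169, while SHFL, an inhibitor of viral frameshifting, fell by 0.86 ± 0.197. EPSTI1 averaged 6.80 with GDF11 and 5.79 in controls, so it passed the filter on low values only through the group in which it is high, and its call is a description. The call of SHFL ended without control replicate 1 (-0.82), control replicate 2 (-0.76), GDF11 replicate 1 (-0.84) or GDF11 replicate 3 (-0.72), and the RNA integrity covariate ended it too (-0.47, adjusted p = 0.294). GBP3, SP110 and TDRD7 were also higher and TRIM14, APOL1 and CMPK2 lower, and each of these 6 calls ended without some single libraries and with the RNA integrity covariate. On leaving out 1 library their differences kept their sign, for example -0.63 to -0.54 for TRIM14 (-0.57 with all libraries) and 0.44 to 0.82 for GBP3 (0.68). With the covariate they stood between -0.52 (TRIM14) and 0.87 (GBP3), with adjusted p of 0.104 to 0.423. Without control replicate 3, 8 of these further targets rose and 7 fell, beside 19.5% and 21.3% of all tested genes.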
